A study of Mus musculus with 531 samples.

Results

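A set of 9 members of the Wnt and BMP pathways were followed through early mouse development: the ligands Wnt3, Bmp2 and Bmp4, the secreted Wnt antagonists Dkk1 and Frzb, and the target genes Axin2, Id1, Id2 and Id3. These 9 of the 22084 genes counted were chosen by name, and all 9 were in the deposited table. Expression was read by Smart-seq2, from the RNA fraction of single cells whose DNA went to bisulfite sequencing. The cells were taken from untreated embryos of the strain C57Bl/6Babr, and the labels give no sex and no genetic change. By the labels, E4.5 is represented by 5 embryos (91 cells), E5.5 by 1 (80 cells) and E6.5 by 2 (93 cells). The study's methods count fewer embryos at E4.5 than the labels do, so some labelled embryos may not be separate animals, and every SD, n and p-value over E4.5 embryos rests on the numbering in the labels. The trophectoderm had been removed by immunosurgery at E4.5. At E5.5 the visceral endoderm and the extraembryonic ectoderm had been pulled off the epiblast, and at E6.5 the extraembryonic tissues had been dissected away, before cells were picked by pipette. After a minimum of 50000 gene-assigned reads and 2000 genes per cell, 75 E4.5 cells, 59 E5.5 cells and 83 E6.5 cells remained.

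Wnt ligands bind Frizzled receptors and their Lrp co-receptors, which leads to the build-up of beta-catenin and, with TCF/LEF factors, to transcription of targets such as Axin2, itself an inhibitor of the pathway. Dkk1 blocks the Lrp co-receptors, and Frzb binds Wnt proteins outside the cell. BMP ligands signal through receptor kinases and SMAD proteins to genes such as Id1, Id2 and Id3, whose products hold basic helix-loop-helix factors inactive. Around gastrulation Wnt3 is required for the primitive streak, Bmp4 comes from the extraembryonic ectoderm, Bmp2 from the visceral endoderm, and Dkk1 is made by the anterior visceral endoderm.

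All 9 genes are protein-coding. In the GENCODE annotation of GRCm38, the build named in the processing notes, the ligand genes lie at chr11:103774150-103817957 on the plus strand (Wnt3), chr2:133552159-133562885 on the plus strand (Bmp2) and chr14:46383520-46390669 on the minus strand (Bmp4). Dkk1 lies at chr19:30545863-30549665 and Frzb at chr2:80411970-80447625, both on the minus strand. The targets lie at chr11:108920349-108950783 (Axin2, plus), chr2:152736251-152737410 (Id1, plus), chr12:25093799-25097140 (Id2, minus) and chr4:136143497-136145755 (Id3, plus). Bmp4 overlaps Gm15217, a gene counted on the other strand, and Axin2 overlaps an antisense gene that was not counted. Smart-seq2 reads do not mark the strand, so reads in the overlap cannot be assigned. RefSeq promoter sequences (GRCm38.p6) were held for 7 of the 9 genes. For Bmp4, the BMP ligand read in 20 of 24 E4.5 epiblast-like cells, and for Axin2, the direct Wnt target, the 250 bases before the RefSeq start are printed 5' to 3', since in these 2 genes they lie wholly outside the gene model. The first is chr14:46390670-46390919 on the minus strand and the second chr11:108920099-108920348 on the plus strand.

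Bmp4: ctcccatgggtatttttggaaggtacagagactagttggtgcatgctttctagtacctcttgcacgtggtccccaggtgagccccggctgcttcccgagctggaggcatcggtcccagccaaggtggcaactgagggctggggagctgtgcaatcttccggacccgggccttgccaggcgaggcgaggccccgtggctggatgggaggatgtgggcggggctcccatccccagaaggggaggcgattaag

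Axin2: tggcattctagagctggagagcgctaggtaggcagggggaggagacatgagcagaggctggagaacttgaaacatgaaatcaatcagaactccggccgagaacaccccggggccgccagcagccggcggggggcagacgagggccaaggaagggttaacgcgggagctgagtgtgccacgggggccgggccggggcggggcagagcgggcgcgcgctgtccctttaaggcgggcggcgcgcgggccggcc

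Both strands of the 7 sequences were searched for a TCF/LEF motif, CTTTGAT, and for a GC-rich SMAD motif, GGCGCC, which do not overlap each other. Matches would have been in capitals, and neither printed sequence held one. Among the 7 genes only Id2 held a match, a GGCGCC whose distance to the start was 231 bases. Of 32851 promoters of the same length, 3.21% held CTTTGAT and 9.59% held GGCGCC, so a match or its lack says only whether these letters stand in the window.

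Lineages were assigned by clustering each stage on 36 marker genes, none of them in the lists of Wnt and BMP genes used below. The markers do include T, a Wnt target of the primitive streak, and Gdf3, a ligand of the same superfamily as the BMPs. At E4.5 this gave 51 endoderm-like and 24 epiblast-like cells, each class present in all 5 embryos. At E5.5 it gave 51 epiblast-like cells and 8 endoderm-like cells, the latter at every cell number that is a multiple of 12. At E6.5 it gave 20 endoderm-like cells and 23 mesoderm-like cells that were all from embryo 2. The mesoderm-like cluster raised 7 of 9 mesoderm markers, but also 6 of 10 epiblast and 3 of 11 endoderm markers. It was named by the list with the most raised markers. There were 2 further clusters. The first of these, of 19 cells, raised 6 of 10 epiblast and 5 of 6 trophoblast markers and was led by Gjb5, Fabp3, Sfmbt2 and Elf5, so it was left without a lineage name and is called the mixed cluster. The second, of 21 cells with a median of 6714 detected genes, raised no marker list and is called the unnamed cluster. Depth per kept cell ranged from a median of 398206 reads in E4.5 embryo 1 to 1511810 in the E5.5 embryo.

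The E6.5 libraries stood apart from the others. Reads of Pou5f1 (epiblast), Apoa1 and Ttr (visceral endoderm) occurred together in 83 of 83 cells at E6.5, against 5 of 75 at E4.5 and 5 of 59 at E5.5. The 11 endoderm markers summed to a median of 1354 CPM (reads on a gene scaled to the total on all genes) in E6.5 mesoderm-like cells and 3320 CPM in the mixed cluster, against 0.479 CPM in E5.5 epiblast-like cells, where 6 of the 11 were at 0. Single E6.5 libraries thus held reads of marker genes of several lineages. It was not tested whether such reads came from the cell itself or from outside it. Nor was their part in each E6.5 value below. Levels in selected cells are given in places but are no test of that part.

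Values below are CPM of the reads summed over the cells of one class in one embryo. At E4.5 the order is always embryo 1 to 5, and at E6.5 embryo 1, then embryo 2. E5.5 and the mesoderm-like class are single embryos, with no spread between replicates. In such sums, fewer expressing cells and less RNA per cell cannot be told apart, and shares of cells are given for that reason. Many sums rested on 1 cell. Of the 134 sums with a read of a member, 74 fell by more than 1.5 times when their highest cell was left out, a choice made after the data had been seen. These were 13 of 17 sums for Axin2, 11 of 16 for Bmp4, 7 of 10 for Wnt3 and for Bmp2, 6 of 7 for Frzb, 7 of 18 for Dkk1, 8 of 18 for Id1, 7 of 19 for Id2 and 8 of 19 for Id3. In epiblast-like cells of E4.5 embryo 5 the same 1 of 4 cells, with 3272 CPM of endoderm markers, held the most reads of Bmp4, Axin2, Id1, Id2 and Id3. For Id1 it was not the highest in CPM, with 12.2 CPM against 30.2 CPM in another of the 4.

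**Figure D1:**
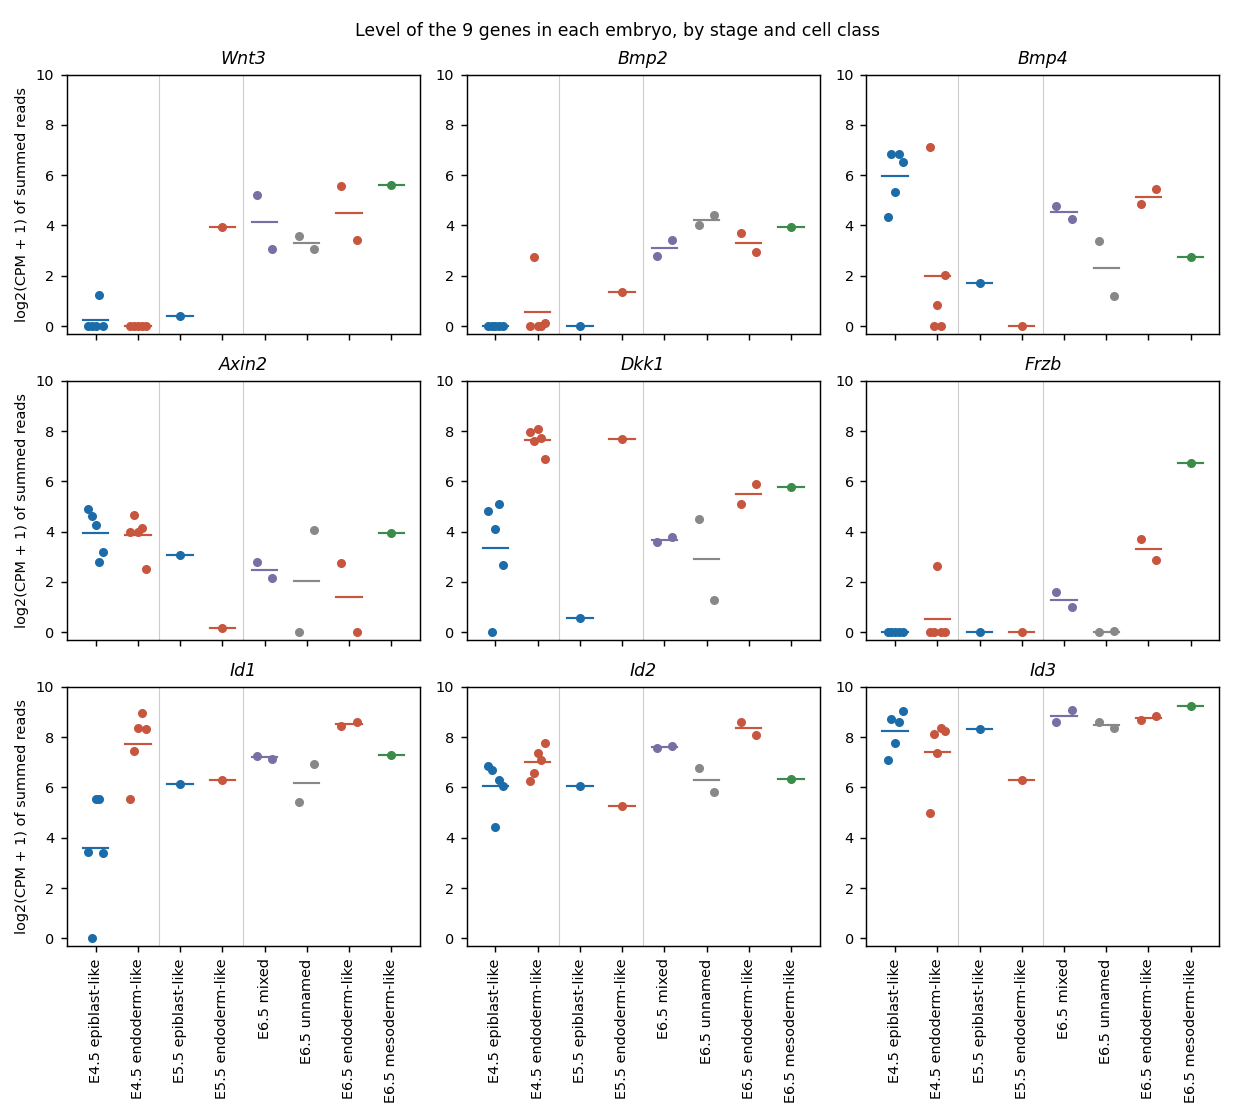
Level of each gene, log2(CPM + 1) of summed reads, by stage and cell class. Each point is 1 embryo and each line is the mean of the embryos. Frzb stands at 6.73 in mesoderm-like cells and below 4 in every other sum, Dkk1 is high in endoderm-like cells of E4.5 and E5.5, and Id3 is at or above 4.99 in every sum.

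Wnt3, the Wnt ligand of the primitive streak, was almost without reads before E6.5. At E4.5 the 51 endoderm-like cells held no read. A count of 0 was taken to allow up to 3 cells, here 5.88% of cells with a read, which is not a limit on cells that express the gene. In epiblast-like cells 1 of 24 epiblast-like cells, in embryo 4, held 9 reads. At E5.5 it was read in 3 of 51 epiblast-like cells (0.328 CPM) and in 1 of 8 endoderm-like cells. That single cell, number 60, held all 222 reads behind the 14.2 CPM of the class and had 125 CPM of its own. At E6.5 the level was 45.9 and 9.62 CPM in endoderm-like cells, 35.6 and 7.31 CPM in the mixed cluster, 10.96 and 7.28 CPM in the unnamed cluster and 48.2 CPM in mesoderm-like cells. In the unnamed cluster of embryo 1 all 280 reads came from 1 of 7 cells. Every E6.5 sum lay above every E4.5 sum, but in the mixed cluster of embryo 2 1 cell held 91 of the 94 reads, and without it the level was 0.277 CPM, below the 1.35 CPM of E4.5 epiblast-like cells in embryo 4. In the 4 and 9 cells of embryos 1 and 2 with at least 500 CPM of Pou5f1 and under 50 CPM of trophoblast markers, outside the named clusters, the level was 6.68 and 6.81 CPM. Within embryo 2, Wnt3 was read in 22 of 23 mesoderm-like cells and in 8 of the 24 other cells. The level was 48.2 CPM in the former (95% Poisson interval 44.9 to 51.6) and 7.43 CPM in the latter (6.67 to 8.25).

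In edgeR's quasi-likelihood test on the sums, Wnt3 was higher in endoderm-like cells at E6.5 than at E4.5 (adjusted p = 0.000346, 5 and 2 embryos). The E6.5 sums came from 17 cells of embryo 1 and 3 of embryo 2. All 5 E4.5 sums were at 0, and Wnt3 passed the filter on low counts only through the later stages. A gene that enters this way had to differ, so the p-value is no support for the stage difference. The call made with no filter rests on the same sums at 0 and adds none. The size is a bound: at least 5.60-fold, from the lower E6.5 embryo over the 3 reads that the shallowest E4.5 sum could have missed. In that E6.5 embryo 23 of the 27 reads came from 1 of the 3 cells, without which the level was 2.22 CPM and the bound 1.29-fold. Without the embryo the adjusted p was 0.00436. Without E6.5 embryo 1 the call was lost (adjusted p = 0.0750). With the 13 endoderm-like cells of embryo 1 that held under 200 CPM of Pou5f1, a choice made after the data had been seen, the level was 37.8 CPM and the adjusted p = 0.00687. Wnt3 was also called higher at E5.5 (edgeR, adjusted p = 0.000746, at least 8.26-fold), but the reads of that class came from 1 cell of 1 embryo, and without it none remained. With limma giving each cell equal weight the E5.5 call was lost (adjusted p = 0.390). Between the mixed cluster and E4.5 epiblast-like cells the adjusted p was 0.110 (edgeR).

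Bmp2, a ligand of the visceral endoderm, was read in 2 of 51 endoderm-like and 0 of 24 epiblast-like cells at E4.5. The 12 reads came from embryo 2 (10 reads in 1 cell, 5.72 CPM) and embryo 5 (2 reads). At E5.5 it was read in 1 of 8 endoderm-like cells (1.53 CPM) and in 0 of 51 epiblast-like cells, where 3 cells would again be 5.88%. At E6.5 all 20 endoderm-like cells held a read, at 11.9 and 6.77 CPM. Mesoderm-like cells did in 21 of 23 (14.5 CPM), and the mixed cluster in 13 of 19 (5.81 and 9.64 CPM). Bmp2 was thus read in all 4 E6.5 classes. The unnamed cluster of embryo 2 had 20.4 CPM, with 610 of its 633 reads in 1 of 14 cells, and 0.898 CPM without that cell. Thinned to 50000 reads per cell, 8 of 20 endoderm-like and 11 of 23 mesoderm-like cells held a read. The E6.5 sums did not overlap those of E4.5, neither in endoderm-like cells nor between the mixed cluster and E4.5 epiblast-like cells. In endoderm-like cells this rests on 1 of 3 cells of E6.5 embryo 2, which held 11 of its 19 reads. Without it the level was 3.12 CPM, below the 5.72 CPM of E4.5 embryo 2. No test passed (edgeR, adjusted p = 0.416 in endoderm-like cells and 0.112 for the mixed cluster).

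Bmp4 was read in most epiblast-like and few endoderm-like cells at E4.5. Its level in epiblast-like cells was 19.1, 114, 38.98, 113 and 92.2 CPM, and 20 of 24 cells held a read. In embryo 5 1 cell, the one with 3272 CPM of endoderm markers, held 390 of the 428 reads, and without it the level was 13.8 CPM. In endoderm-like cells it was 138, 0, 0.778, 0 and 3.13 CPM, with reads in 5 of 51 cells. The lineages were apart in embryos 2 to 5 and reversed in embryo 1. There, 1 of the 10 endoderm-like cells held 730 of the 743 reads (1149 CPM). This cell had 2025 detected genes and no read of any of the 11 endoderm markers, and average-linkage clustering placed it with the 24 epiblast-like cells. The other 9 cells of that embryo had 2.73 CPM.

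At E5.5 Bmp4 was read in 5 of 51 epiblast-like cells (2.31 CPM) and in 0 of 8 endoderm-like cells, where 3 cells would be 37.5%. The E5.5 epiblast-like sum lay below all 5 E4.5 sums, with a log2 fold change of -4.95 ± 1.31 (SE), yet it did not pass (edgeR, adjusted p = 0.141). DESeq2 called it lower, as it did 3.97% of all genes. At E6.5 the level was 27.8 and 42.8 CPM in endoderm-like cells, 26.5 and 18.3 CPM in the mixed cluster and 5.78 CPM in mesoderm-like cells, where 9 of 23 cells held a read. Of the endoderm-like reads of embryo 2, 109 of 120 came from 1 of 3 cells, and without it the level was 8.86 CPM. The unnamed cluster had 9.51 and 1.29 CPM. In the Pou5f1-selected cells described for Wnt3 the level was 2.08 and 0.924 CPM. For these cells Bmp4 was lower than in E4.5 epiblast-like cells (edgeR, log2 fold change -5.00, adjusted p = 0.0164). For the mixed cluster the log2 fold change was -1.76 ± 0.77 (SE), with adjusted p = 0.241 (edgeR). The mixed cluster held a median of 137 CPM of the 6 trophoblast markers, and cells of the extraembryonic ectoderm are a known source of Bmp4. The part of such reads in its Bmp4 level was not tested. The selection is no test of it, since it drew on the mixed and unnamed clusters and was made after the data had been seen.

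**Figure D2:**
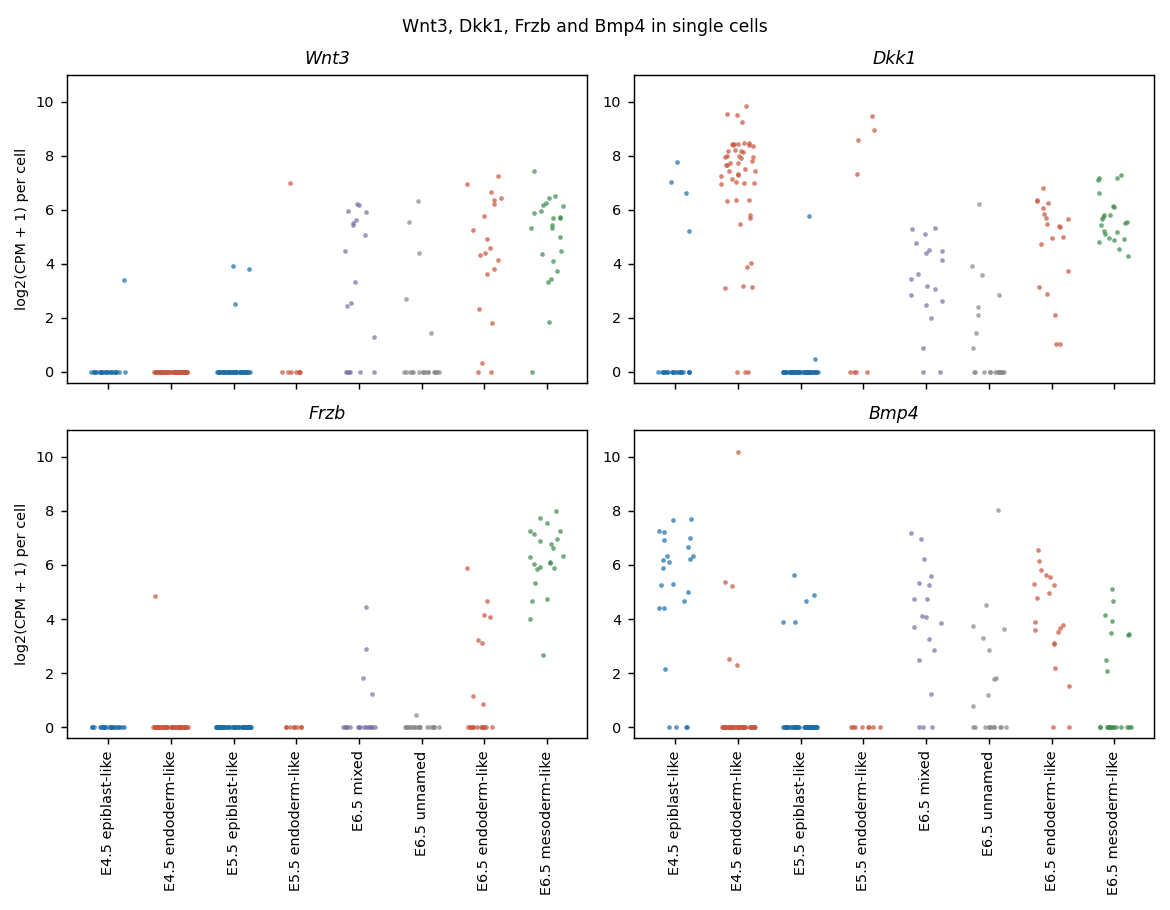
Wnt3, Dkk1, Frzb and Bmp4 as log2(CPM + 1) in single cells, by stage and class, 1 point per cell. Cells at 0 held no read. All 23 mesoderm-like cells lie above 0 for Dkk1 and Frzb, 48 of 51 E4.5 endoderm-like cells lie above 0 for Dkk1, and the highest Bmp4 point is the E4.5 endoderm-like cell at 1149 CPM.

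Dkk1, the Lrp-blocking antagonist, was an endoderm gene at E4.5. Endoderm-like cells had 248, 194, 273, 210 and 118 CPM, and 48 of 51 cells held a read. Epiblast-like cells had 27.6, 0, 15.97, 33.3 and 5.38 CPM, from 1 cell in each of 4 embryos. These 4 cells held 1287 to 4126 CPM of the endoderm markers, against a median of 40.96 CPM and a highest value of 3272 CPM in the 20 epiblast-like cells without a Dkk1 read, so that the ranges overlapped, and over the 24 cells Dkk1 correlated with the endoderm list (Pearson's r = 0.65). The part of such reads in the epiblast-like level was not tested. The lowest endoderm-like sum stood above the highest epiblast-like sum. Within embryos the difference was 4.32 ± 1.95 on the log2 scale (mean ± SD, n = 5, higher in 5 of 5). At E5.5 epiblast-like cells had 0.492 CPM, with reads in 2 of 51 cells, and endoderm-like cells had 203 CPM, within the range of the E4.5 embryos (log2 fold change 0.27 ± 0.52 SE, edgeR adjusted p = 0.740). With limma giving each cell equal weight the sign was the opposite and Dkk1 was called lower (log2 difference -2.75, adjusted p = 0.0477), as were 6.80% of all genes. That sum hid a split. Cells 60, 96, 84 and 12 had 713, 495, 377 and 159 CPM, and the other 4 cells had no read.

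The genes of the anterior visceral endoderm did not follow that split alike. Gsc was highest in cell 96 (167 CPM) and Cer1 in cell 84 (121 CPM), both with Dkk1, while cell 72 had 1243 CPM of Lefty1 (2010 CPM in cell 84), 408 CPM of Hhex and no Dkk1. Lhx1 was read in 7 and Otx2 in all 8 cells. Id1 was read in the 4 cells with Dkk1 and in 1 other, and across the 8 cells its log2(CPM + 1) correlated with that of Dkk1 (Pearson's r = 0.89, 8 cells of 1 embryo, noticed after the values were seen). Over E4.5 endoderm-like cells the same correlation was 0.04 (51 cells), and at E6.5 it was 0.05 (20 cells).

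At E6.5 Dkk1 stood at 33.4 and 58.8 CPM in endoderm-like cells, below all 5 E4.5 sums. It was lower than at E4.5 (log2 fold change -2.15 ± 0.46 SE, edgeR adjusted p = 0.00553), although all 20 cells held a read. The call was lost without E6.5 embryo 1 (adjusted p = 0.165), without embryo 2 (adjusted p = 0.0610), with limma on cell means (adjusted p = 0.0508) and in the 13 cells with few Pou5f1 reads, which are from embryo 1 alone (33.02 CPM, adjusted p = 0.0583). The direction was the same in each. Of the 6 anterior visceral endoderm genes, Hhex was also lower at E6.5 (log2 fold change -3.30, edgeR adjusted p = 0.0126), while Otx2 (7.48), Lhx1 (2.81) and Cer1 were higher. Lefty1 and Gsc did not pass (adjusted p = 0.128 and 0.778). In endoderm-like cells Otx2 stood at 67.4 and 166 CPM, Lhx1 at 53.5 and 38.8 CPM and Cer1 at 4.66 and 21.7 CPM. Mesoderm-like cells had 140, 190 and 162 CPM of these 3 genes. In the mixed cluster Otx2 stood at 165 and 219 CPM, Lhx1 at 28.8 and 11.5 CPM and Cer1 at 8.68 and 3.11 CPM. The part of reads from other lineages in the endoderm-like values was not tested. Dkk1 was also read in all 23 mesoderm-like cells (54.05 CPM, cells between 18.5 and 153 CPM), against 13 of the 24 other cells of that embryo (8.05 CPM). The mixed cluster had 10.9 and 12.9 CPM (log2 fold change against E4.5 epiblast-like cells -0.47, edgeR adjusted p = 0.918), and limma on cell means called Dkk1 higher there (2.23, adjusted p = 0.0267).

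Frzb, the secreted Wnt-binding antagonist, was a gene of the mesoderm-like cells. All 23 held a read, at 105 CPM in the sum, with single cells from 5.39 over a median of 77.1 to 255 CPM. In the other 24 cells of the same embryo it was read in 4, at 0.685 CPM. Thinned to 50000 reads, 20 of 23 mesoderm-like cells still held a read. Elsewhere the level was 12.1 and 6.42 CPM in E6.5 endoderm-like cells, with 8 of 20 cells positive, and 1.99 and 1.01 CPM in the mixed cluster. In endoderm-like cells 231 of the 384 reads of embryo 1 and 16 of the 18 of embryo 2 came from 1 cell each, and without these the levels were 5.502 and 1.11 CPM. Before E6.5 a single cell, in the endoderm-like class of E4.5 embryo 3, held 20 reads, and no other cell did. The mesoderm-like cells are a cluster of 1 embryo, so no test was made. Frzb was not among the markers used to find them but stood among the cluster's leading genes. Frzb was not called in any stage comparison (edgeR, adjusted p of 0.227 or more). Without E4.5 embryo 3, the 1 with reads, every E4.5 endoderm-like sum was at 0. Frzb was then called higher in endoderm-like cells at E6.5 (edgeR, adjusted p = 0.0183). That call follows from leaving out the only E4.5 reads and rests on the E6.5 sums above, so it is no support for a rise.

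Axin2, the feedback inhibitor and Wnt target, was read in both lineages at E4.5. Its level was 28.9, 23.8, 18.1, 6.01 and 8.18 CPM in epiblast-like cells and 15.01, 24.6, 15.04, 16.7 and 4.72 CPM in endoderm-like cells, so the lineages overlapped. At E5.5 it was 7.49 CPM in epiblast-like cells, where 1 of the 6 positive cells held 70.2% of the reads, and 0.128 CPM in endoderm-like cells, from 2 reads. At E6.5 it was 14.4 CPM in mesoderm-like cells, with reads in 22 of 23. In the other 24 cells of the embryo it was 11.6 CPM from 8 cells. Of those 540 reads 453 came from 1 unnamed cell, and without it the level was 2.11 CPM. Endoderm-like cells had 5.79 and 0 CPM and the mixed cluster 5.86 and 3.498 CPM. Thinned, 8 of 23 mesoderm-like cells held a read. The E5.5 endoderm-like level lay below every E4.5 embryo (log2 fold change -6.50 ± 2.57 SE), with adjusted p = 0.0938 (edgeR).

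Id1 was the target that separated the lineages at E4.5. Endoderm-like cells had 45.6, 175, 332, 502 and 316 CPM, and epiblast-like cells 9.77, 0, 45.8, 45.96 and 9.47 CPM. The groups overlapped only through embryo 1, whose endoderm-like level was below the 2 highest epiblast-like levels. In embryo 4, 304 of the 306 epiblast-like reads came from 1 cell with 1948 CPM of endoderm markers, and over the 24 epiblast-like cells Id1 correlated with the endoderm list (Pearson's r = 0.57). The part of such reads was not tested. Within each embryo the endoderm-like cells were higher, by 4.15 ± 2.12 on the log2 scale (mean ± SD, n = 5). At E5.5 the levels were 68.9 CPM in epiblast-like cells, from 15 of 51, and 77.6 CPM in endoderm-like cells, from 5 of 8. Of the latter reads 719 of 1214 came from cell 60, and without it the level was 35.7 CPM. At E6.5 Id1 was read in every endoderm-like, mesoderm-like and mixed cell, and in 19 of 21 unnamed cells. Its level was 347 and 390 CPM in endoderm-like cells, 151 and 140 CPM in the mixed cluster and 157 CPM in mesoderm-like cells. The mixed cluster lay above all 5 E4.5 epiblast-like sums (log2 fold change 2.69 ± 0.93 SE), with adjusted p = 0.146 (edgeR). In the Pou5f1-selected E6.5 cells the level was 40.5 and 261 CPM, and the first of these lay within the E4.5 epiblast-like range. In the unnamed cluster of embryo 2, 1 cell held 3362 of the 3811 Id1 reads. The other mixed and unnamed cells of that embryo held too few reads to give 261 CPM, so this cell was among those selected. The 261 CPM thus rests mostly on 1 cell, and the level without it was not computed.

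Id2 was read in most cells of both lineages at E4.5, at 115, 102, 20.4, 78.4 and 66.5 CPM in epiblast-like cells and 75.4, 93.3, 165, 136 and 219 CPM in endoderm-like cells. These ranges overlapped. At E5.5 it was 66.4 CPM in epiblast-like cells and 37.4 CPM in endoderm-like cells, where 1 cell held 95.7% of the reads. At E6.5 it was 385 and 273 CPM in endoderm-like cells, 188 and 199 CPM in the mixed cluster and 79.5 CPM in mesoderm-like cells. The E6.5 endoderm-like sums lay above every E4.5 endoderm-like sum and the mixed sums above every E4.5 epiblast-like sum, with log2 fold changes of 1.26 ± 0.42 and 1.34 ± 0.52 (SE), yet neither passed (edgeR, adjusted p = 0.0942 and 0.189). In the Pou5f1-selected cells Id2 stood at 47.1 and 91.6 CPM, within the E4.5 epiblast-like range. Id2 correlated with the trophoblast markers at r = 0.64 in E6.5 endoderm-like cells (20 cells) and 0.69 over all 83 E6.5 cells, and the part of such reads was not tested. Id2 was the one Id gene with a lower summed level in mesoderm-like cells than in the other cells of embryo 2 (79.5 against 108 CPM), while its mean log2(CPM + 1) over single cells was 6.14 against 5.87.

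Id3 is the third of the Id targets measured. Its level was 134, 416, 215, 388 and 523 CPM in E4.5 epiblast-like cells and 30.8, 278, 164, 332 and 306 CPM in endoderm-like cells, lower in the latter in 5 of 5 embryos by 0.81 ± 0.74 on the log2 scale (mean ± SD), a difference under the limit of 1 in 4 of them. In embryo 5, 2232 of the 2429 epiblast-like reads came from the cell with 3272 CPM of endoderm markers. Without it the epiblast-like level was 71.3 CPM, the difference in that embryo went from -0.77 to 2.09, and the direction held in 4 of 5 embryos (-0.24 ± 1.498, mean ± SD). The means of log2(CPM + 1) over single cells of embryo 5 were 4.43 in epiblast-like and 4.73 in endoderm-like cells. At E5.5 it was 317 CPM in epiblast-like cells and 78.3 CPM in endoderm-like cells, where 1 cell, the same number 60 that held Wnt3, gave 99.8% of the reads. At E6.5 every kept cell held a read. The levels were 414 and 454 CPM in endoderm-like cells, 382 and 543 CPM in the mixed cluster and 609 CPM in mesoderm-like cells. No stage difference passed (edgeR, adjusted p of 0.310 or more), but in the Pou5f1-selected E6.5 cells, at 710 and 758 CPM, Id3 was higher than in E4.5 epiblast-like cells (edgeR, log2 fold change 1.65, adjusted p = 0.0483). That selection was made from the mixed and unnamed clusters. In the unnamed cluster, 1 cell held 7032 of the 9888 reads of embryo 1 and 1 cell held 4740 of the 10096 reads of embryo 2. The former also held 2804 CPM of endoderm markers, and the Id3 call may rest on such single cells. Among E4.5 endoderm-like cells Id1 and Id3 correlated with r = 0.59, Id2 and Id3 with r = 0.40 and Id1 and Id2 with r = 0.31 (Pearson, 51 cells that share 5 embryos and differ in depth). In E6.5 endoderm-like cells these values were 0.65, -0.09 and 0.03 (20 cells of 2 embryos).

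**Figure D3:**
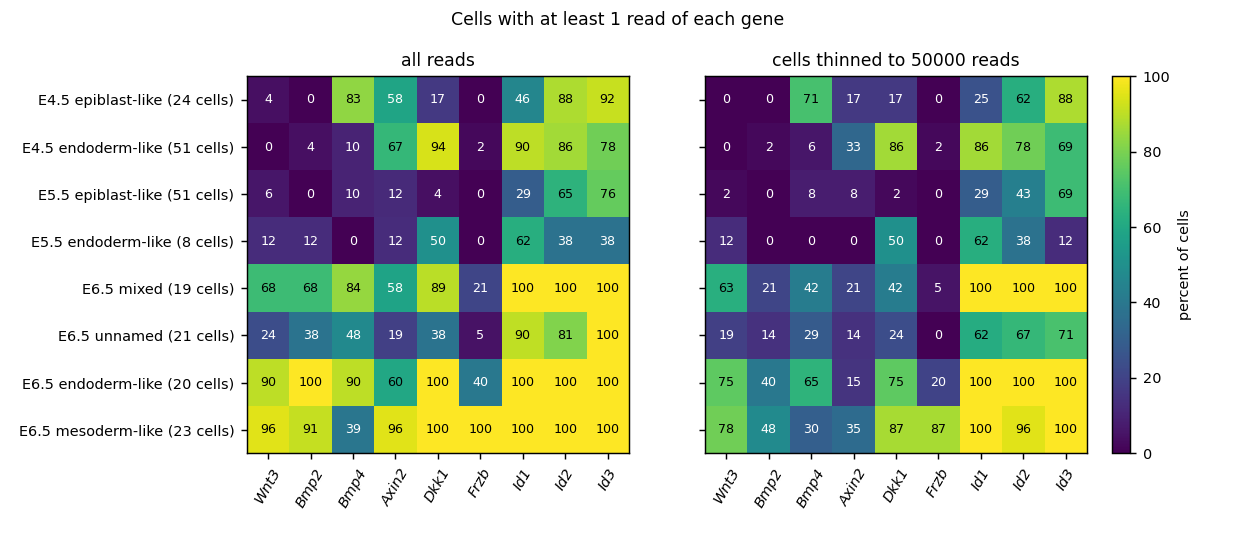
Percent of cells with at least 1 read of each gene, by stage and class, for all reads and after each cell was thinned to 50000 reads. For Bmp2 in E6.5 endoderm-like cells 20 of 20 cells hold a read with all reads and 8 of 20 after thinning, while for Frzb in mesoderm-like cells it is 23 of 23 and 20 of 23.

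Thinning showed which shares depended on depth. Among E6.5 endoderm-like cells, those with an Axin2 read went from 12 to 3 of 20 and those with a Dkk1 read from 20 to 15, while for Id1, Id2 and Id3 it was 20 in both. At E4.5 the cells with an Axin2 read went from 14 to 4 of 24 in the epiblast-like class, whereas those with a Dkk1 read went from 48 to 44 of 51 in the endoderm-like class. The order of the lineages for Bmp4, Dkk1 and Id1 at E4.5 was the same in both.

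Between the lineages of E4.5, a gene was called where it differed by at least 1 on the log2(CPM + 1) scale in 1 direction in all 5 embryos, with no test, since the lineages are clusters of the same cells. Of the 9 genes, 6 had a mean of at least 1 CPM over the 10 sums, while Wnt3, Bmp2 and Frzb did not. Dkk1 and Id1 were called higher in endoderm-like cells, and no member was called lower. Among all 11736 genes at that level, 4.76% were called higher and 2.79% lower. Bmp4 failed through embryo 1, and without that embryo it was lower in each of the other 4.

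**Figure D4:**
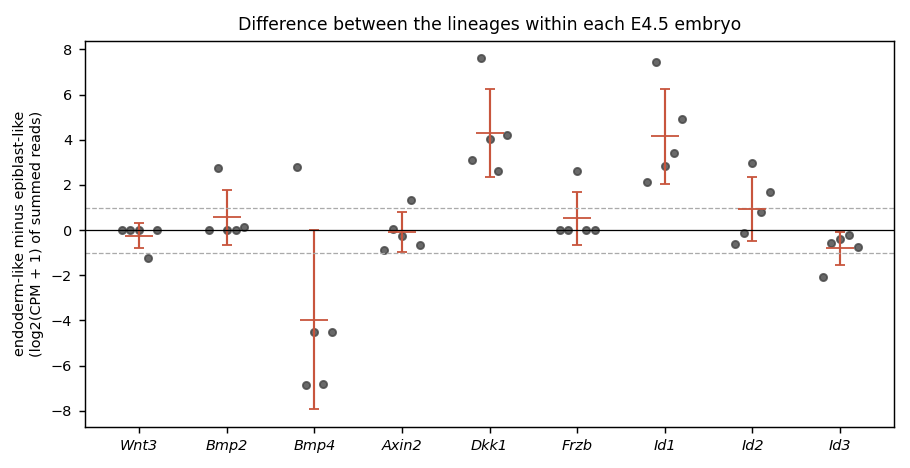
Endoderm-like minus epiblast-like level within each E4.5 embryo, as log2(CPM + 1) of summed reads. Points are embryos, and red marks are the mean with its SD (n = 5). Dashed lines stand at 1 and -1. Dkk1 lies between 2.62 and 7.61 and Id1 between 2.11 and 7.46, while Bmp4 lies between -6.84 and 2.79.

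Other listed Wnt and BMP genes were called in that comparison as well. Bmp6, a BMP ligand, was higher in endoderm-like cells. Fzd10, a Wnt receptor, and the Wnt targets Lef1 and Notum were lower. The lists of Wnt ligands, Wnt transducers, BMP receptors, BMP transducers and BMP antagonists held no called gene, with 6, 13, 5, 3 and 3 genes at that level. At the shares over all genes, 4.76% higher and 2.79% lower, lists this short can hold none, and nothing is read from these counts.

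Across stages the test was run on all genes of each lineage, with the mixed cluster set against E4.5 epiblast-like cells although it carries no lineage name, and all 9 members passed its filter on low counts in both. In epiblast-like cells 0 of 9 were called at E5.5 against E4.5. Of all 13209 genes, 0.174% were called higher and 0.310% lower. At an unadjusted p under 0.05 there was 1, Bmp4, which DESeq2 also called and limma did not. In the mixed cluster of E6.5 against E4.5 epiblast-like cells 0 of 9 were called, with 1.25% of all genes higher and 1.79% lower. Here 6 members had an unadjusted p under 0.05 (Wnt3, Bmp2, Bmp4, Frzb, Id1 and Id2), DESeq2 called Wnt3 higher with 3.00% of all genes, and limma on cell means called 6 members higher with 13.2% of all genes.

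In endoderm-like cells, 1 of 9 was called higher at E5.5 (Wnt3) and none lower, where 4.90% of all 13453 genes were called higher and 9.80% lower. The median log2 fold change of all genes was -1.16 there, in a class with a median of 4224 detected genes, and that of the members was -1.56. At E6.5, 1 was called higher (Wnt3) and 1 lower (Dkk1), against 2.56% and 2.07% of all genes. On simulated counts for this last comparison the test recovered 18% of genes changed 4-fold, and 1.5% for epiblast-like cells at E5.5, so a gene without a call is not shown to be unchanged.

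The Wnt and BMP lists held 112 genes with the members. Of the others, 74 were tested in epiblast-like cells and 72 in endoderm-like cells. None passed at E5.5 in epiblast-like cells (edgeR, 9 with an unadjusted p under 0.05). Against the mixed cluster 2 were lower and none higher. Notum, which inactivates Wnt proteins and is itself a Wnt target, went from between 7.51 and 69.5 CPM at E4.5 to 0.111 CPM or less (adjusted p = 0.0156), and Fstl1, a secreted BMP antagonist, from between 82.5 and 181 CPM to between 23.6 and 25.9 CPM (log2 fold change -2.24, adjusted p = 0.0403). The median log2 fold change of all listed genes was -0.15 at E5.5 and 0.75 for the mixed cluster, against -0.0015 and 0.12 over all genes. With genes that had a group at 0 set to their bound, or left out where both groups were under it, these were -0.21 (62 genes) and 0.74 (73 genes).

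In endoderm-like cells at E5.5, 5 of the 72 were higher and 5 lower, against 4.90% and 9.80% of all genes, and nothing is read from the counts. The higher ones included the secreted Wnt inhibitors Sfrp5, at 149 CPM in 6 of 8 cells against at most 1.30 CPM at E4.5, and Sfrp1, at 235 CPM in 7 of 8 cells against at most 53.8 CPM. Cer1, a secreted antagonist of BMP and Nodal proteins, stood at 30.7 CPM in 4 of 8 cells. It had no read at E4.5, so the rise is a bound of at least 17.9-fold. Cer1 passed the filter on low counts only through later stages, and its call is no support for a direction. The receptor Fzd5 stood at 76.2 CPM, and the target Tcf7 at 44.3 CPM from 1 cell. Of the lower ones, the receptors Acvr2b and Bmpr2, the transducers Tcf7l1 and Axin1 and the BMP target Smad7, all but Bmpr2 had no read in the 8 cells. The bound was at least 69.1-fold for Acvr2b and 30.2-fold for Axin1. All 10 rest on the single E5.5 embryo. The median over all listed genes was -1.34, against -1.16 over all genes, and -0.45 over the 48 genes with a fold or a bound.

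At E6.5, 7 of the 72 were higher and 1 lower in endoderm-like cells, against 2.56% and 2.07% of all genes. All 7 stood at 1.30 CPM or less in every E4.5 sum, and Fzd2, Hand1 and Cer1, with no read there, passed the filter on low counts only through later stages, so the count is no support for a direction. Sfrp5 (8.78 to 12.5 CPM) and Cer1 (4.66 to 21.7 CPM) were higher than at E4.5 as they were at E5.5. The receptor Fzd2 (14.6 to 26.4 CPM) and the BMP target Hand1 (16.4 to 17.5 CPM) had no read at E4.5, and were at least 8.50-fold and 9.55-fold higher. Lef1, Smad6 and the ligand Bmp8b were also higher (edgeR, adjusted p = 0.00658, 0.0271 and 0.0482). The embryos differed: Lef1 stood at 3.87 and 54.5 CPM, Smad6 at 29.2 and 14.6 CPM and Bmp8b at 30.3 and 8.91 CPM. The second value of each is a sum of 3 cells. Porcn, the acyltransferase that Wnt ligands need for secretion, was lower, at 1.78 to 5.19 CPM against 34.1 to 294 CPM (log2 fold change -4.81, adjusted p = 0.00224). Lef1 was at 15.5 to 23.8 CPM and Fzd2 at 36.5 to 41.9 CPM in the mixed cluster of the same embryos. In mesoderm-like cells of embryo 2 Lef1 was at 127 CPM, Fzd2 at 91.9 CPM and Cer1 at 162 CPM. Sfrp5, Hand1, Smad6 and Bmp8b were at 8.61 CPM or less there. The part of reads from other lineages in these endoderm-like values was not tested. The median log2 fold change of all listed genes was 0.66, against -0.07 over all genes, and 0.56 over the 74 genes with a fold or a bound.

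Within E6.5 embryo 2, 10 of the 11 listed Wnt targets, Axin2 among them, had a higher summed level in the mesoderm-like cells than in the other cells, where 67.1% of all 16209 genes with a read and 67.2% of the 11711 genes of at least 1 CPM did. The T gene, itself a Wnt target, was among the markers that formed the cluster. Sp5 had 53.03 CPM there and 0.107 CPM in the other 24 cells, Nkd1 had 34.97 and 2.16 CPM, and Lef1 had 127 and 31.5 CPM. Notum was near 0 in both, at 0.120 and 0 CPM, and so was Rnf43, at 0.662 and 0.0428 CPM. Znrf3 was the 1 with a lower sum, at 18.2 and 46.7 CPM. Of the 10 BMP targets 8 had a higher sum in the mesoderm-like cells, against the same 67.1% of all genes. Nothing is read from either count. Among them Msx2 had 41.1 and 3.06 CPM and Bambi 49.7 and 16.2 CPM, whereas Smad7 had 8.55 and 14.6 CPM and Id2 was the other lower one. These are cells of 1 embryo in a cluster, and no test was made. The median depth of the mesoderm-like cells was 712549 reads, the lowest of the 4 classes of E6.5, and their median of 9904 detected genes was the highest.

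Over the 19 sums of a class in an embryo, the genes whose log2(CPM + 1) was most like that of a member were ranked by Pearson's r among 11814 genes. They were Lgr5 (0.89), Chrd and Sp5 for Frzb, Flrt3 (0.92), Eml1 and Gata4 for Dkk1, and Rbp4 (0.91), Pkdcc and Sorl1 for Wnt3. Perp, Adamts1 and Mif were nearest to Bmp2 (r from 0.89 to 0.90), and Dstyk, Bcat1 and Tmsb4x to Bmp4 (0.76 to 0.78). For Axin2 these were Tm7sf3, Pdgfa and Sap130 (0.85 to 0.86). Id1 was nearest to Fam213a, Cfl2 and Tmem110 (0.88), Id2 to Sgk3, Naxd and Cltrn (0.72 to 0.74) and Id3 to Cipc, Pcm1 and Zfp184 (0.77 to 0.81). The sums share stages and embryos, so these are descriptions.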

How the data were processed

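The authors deposited raw read counts per gene for 264 embryo cells, without normalization. The submitters' processing notes name Trim Galore 0.4.2, HISAT2 2.1.0, featureCounts and GRCm38. The annotation release is not given in the sources used here. Bisulfite libraries are not analysed here. Symbols were matched for 21907 of 22084 identifiers, and loci came from GENCODE. Cells were clustered within stages (Ward, log2(CPM + 1) of markers) and doublets were not called. Counts were summed per class and embryo and compared by quasi-likelihood tests in edgeR 4.0.16 on R 4.3.3 (TMM scaling, filterByExpr, Benjamini-Hochberg adjusted p under 0.05). All stages shared 1 fit per lineage, so E5.5, with a single embryo, takes its spread from the other stages. Stage and label prefix cannot be told apart. Exact binomial and Poisson intervals at 95% and floors of 3 reads cover counting error only, since reads carry no molecular identifiers. The members and lists were chosen with earlier results of these data known.

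Genes named are the members, the 2 largest rises and falls past the threshold per list and comparison, 6 anterior visceral endoderm genes and the 3 genes most like each member; those of E4.5 and of embryo 2 at E6.5 beyond this were chosen after their values were seen. The edgeR and DESeq2 tests, but not limma, were run on simulated counts with 200 genes changed 4-fold. For epiblast-like and then endoderm-like cells, edgeR recovered 1.5% and 4% at E5.5 (12280 and 12630 genes) and 13% and 18% at E6.5 (12270 and 12660 genes), with 0, 3, 1 and 3 false calls. DESeq2 1.42.0 recovered 15.5%, 15.5%, 29% and 32% in the same order, with 312, 87, 98 and 87 false calls. Alternatives used DESeq2, limma 3.58.1, other filters, scalings, pseudocounts (0.1 and 10 beside 1), clusterings and embryo subsets. A pair of choices of E6.5 cells were added after seeing the data. Same-numbered embryos did not deviate together (correlations from -0.06 to 0.02).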

Additional observations from a re-analysis of the deposited data

Results flagged for a closer look

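A sample far from the others of its group was found in 4 of the 15 sets of 5 E4.5 embryos examined, where chance gives about 0.75, 1 in 20. For Wnt3 and Frzb the other 4 embryos were at 0, so that any read gives this result and the chance figure does not apply to them. Wnt3 stood at 1.23 on the log2(CPM + 1) scale in epiblast-like cells of embryo 4, with the other embryos at 0. Bmp2 stood at 2.75 in endoderm-like cells of embryo 2, the next at 0.13. Bmp4 stood at 7.12 in endoderm-like cells of embryo 1, the next at 2.05. Frzb stood at 2.63 in endoderm-like cells of embryo 3, the others at 0. In the cases of Wnt3 and Frzb all reads came from 1 cell, for Bmp2 10 of 12 reads and for Bmp4 730 of the 811 reads of its class did.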

How the results depend on the processing

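Of the members' stage changes under the alternatives, 550 kept their direction and side of the threshold, 50 passed it anew, 6 no longer passed and 24 had the opposite sign. The cause was not tested. All 24 concern log2 fold changes between -0.47 and 0.89 that had not passed in edgeR. After the change of sign 2 passed, both with limma on cell means, which put Dkk1 at -2.75 in endoderm-like cells at E5.5 (from 0.27) and at 2.23 in the mixed cluster (from -0.47, and 1.54 with embryo number as a replicate block). In epiblast-like cells at E5.5, Wnt3 went from 0.11 to -0.49 with prefix P2 and to between -0.23 and 5.61 without 1 embryo at a time, the latter without E4.5 embryo 4, which left no E4.5 read, so that it is no fold. Id2 went from -0.10 to 0.32 with P2 and ranged from -0.35 to 0.062 without 1 embryo. Id3 went from -0.011 to 0.052 with 200000 reads per cell, 0.023 with no filter, 0.32 with P1, 0.0093 with the Pou5f1-selected E6.5 cells, and ranged from -0.22 to 0.23 without 1 embryo. In endoderm-like cells, Bmp2 at E5.5 went from 0.89 to -0.52 with P1. At E6.5 Bmp4 went from 0.42 to -0.078 with 3 clusters and -0.87 with P1, and Id1 from 0.43 to -0.50 with average linkage, -0.26 with 3 clusters and -0.097 with P2.

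With DESeq2, 1 member was lower in epiblast-like cells at E5.5 (Bmp4), 1 was higher in the mixed cluster (Wnt3) and 2 were lower in endoderm-like cells at E5.5 (Axin2, Id2). With no filter on low counts these were 1 (Bmp4), 3 (Bmp2, Id1, Wnt3) and 1 (Bmp4), and 2 were higher in endoderm-like cells at E6.5 (Id2, Wnt3). With limma on cell means, 6 were higher in the mixed cluster and 6 in endoderm-like cells at E6.5, with 0 lower, and at E5.5 0 were higher and 2 lower (Dkk1, Id2) in endoderm-like cells. The median over all genes then moved from 0.12 to 0.56 in the mixed cluster and from -0.07 to 0.48 in endoderm-like cells at E6.5. With 200000 reads and 4000 genes per cell, 1 was lower at E5.5 (Id2) and 2 higher at E6.5 (Bmp4, Wnt3) in endoderm-like cells, and 1 was lower between lineages at E4.5 (Bmp4), as with average linkage. Average linkage, 3 clusters at E6.5 and a fit of the 2 stages compared each gave 1 lower at E5.5 in endoderm-like cells (Axin2). Average linkage and 3 clusters left no mixed cluster to test. With E4.5 embryos of prefix P1, 1 was higher in the mixed cluster (Id1), 4 were higher in endoderm-like cells at E6.5 and 1 was lower at E5.5 (Bmp4), and with those of P2 these last were 3 and 2. Of the choices added after seeing the data, the selection of E6.5 cells by Pou5f1 and trophoblast markers, which set no limit on endoderm or mesoderm reads outside the named clusters, gave 1 higher (Id3) and 1 lower (Bmp4) against E4.5 epiblast-like cells and 0 lower in endoderm-like cells, and both clusters outside the named ones gave 1 higher (Bmp2).

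With embryo number as a replicate block, possible at E6.5 alone, 1 member was higher in the mixed cluster (Id1) and 4 in endoderm-like cells (Id1, Id2, Id3, Wnt3). Of all genes, 159 of 11284 were then higher in the mixed cluster and 175 of 11295 in endoderm-like cells. The E4.5 and E6.5 embryos share only numbers.

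Leaving out 1 embryo at a time, the endoderm-like counts ranged from 0 to 2 lower at E5.5, from 0 to 2 higher at E6.5 (0 without E6.5 embryo 1) and from 0 to 1 lower at E6.5 (0 without either E6.5 embryo), and the count lower between lineages from 0 to 1 (1, Bmp4, without E4.5 embryo 1). Without E4.5 embryo 3, or with prefix P1 alone, Frzb had no read left in endoderm-like cells of E4.5 and E5.5 and gave no value there.

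Over all genes and alternatives, edgeR's 23 higher and 41 lower in epiblast-like cells at E5.5 ranged from 5 (average linkage) to 175 (no filter) and from 15 (Pou5f1-selected E6.5 cells) to 433 (DESeq2). For the mixed cluster, 165 and 236 ranged from 30 and 83 (without E6.5 embryo 2) to 1747 (limma) and 690 (DESeq2). In endoderm-like cells at E5.5, 659 and 1318 ranged from 158 and 915 (limma) to 768 (no filter) and 2773 (DESeq2), and at E6.5, 344 and 278 ranged from 97 and 76 (without E6.5 embryo 2) to 1767 (limma) and 649 (DESeq2). On simulated counts DESeq2 recovered more of the changed genes than edgeR and made more false calls.

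A single E5.5 embryo, 2 E6.5 embryos and reads of several lineages in each E6.5 library limit the stage comparisons, and thinning moved 23 of 72 shares of cells.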
